A study of Mus musculus with 28 samples.

Results

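The 10 genes followed here serve the development, identity or function of type 1 conventional dendritic cells (cDC1). These genes are Batf3, Irf8, Id2, Zbtb46, Flt3, Xcr1, Clec9a, Wdfy4, Itgae and Cadm3. They are a list of names, set by what is known of these cells and not by a threshold on values. The list was chosen, however, with earlier results of these data known. Setting its counts against shares of all genes is therefore no independent test. Of the 10, 9 were measured, among 17097 genes in all. No probe set in the probe table names Clec9a, which encodes a receptor for dead cells, and it was not analysed here.

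cDC1 are rare leukocytes that take up material from dying tumour cells and present its peptides on MHC class I to CD8+ T cells, a process called cross-presentation. Their precursors respond to the growth factor Flt3 ligand through its receptor Flt3, and the transcription factors Irf8, Batf3 and Id2 direct them to the cDC1 fate. In mice, tumours grown in animals without Batf3 lack these cells, and T cell responses to such tumours are impaired.

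The RNA came from CD45+ cells, that is leukocytes, sorted from tumours grown in mice from the melanoma line B16.F10 or the colon carcinoma line MC38, and was hybridised to 28 Affymetrix arrays. In the Nrp1-deleted groups the hosts carried Nrp1L/LFoxp3Cre-YFP: loxP-flanked alleles of Nrp1, which encodes the co-receptor neuropilin-1, with Cre and YFP expressed from Foxp3, the gene that marks regulatory T cells (Treg). Control hosts carried Foxp3Cre-YFP alone, so the Cre and YFP allele was shared by all groups and the deletion was confined by its driver to cells that express, or have expressed, Foxp3. MC38 tumours were sampled at days 6, 12 and 18. B16 tumours had an early time and then days 12 and 18, and the 2 genotypes made 12 groups in all. The first B16 time is day 8 by the array titles but day 6 by the source names, hence early. The B16 day 18 and MC38 day 12 groups held 3 arrays each, and each of the other 8 groups held 2. The labels give neither the age of the mice nor whether replicates came from separate animals, so the p-values rest on array-to-array spread that may be technical.

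The deposited log2 values fell into 3 separately scaled sets, with mean values of 4.62 to 4.64 (B16 day 18 and MC38 day 12), 4.82 to 4.83 (MC38 days 6 and 18) and 4.96 to 4.97 (early and day 12 B16). Genotypes were compared inside a set, whereas a difference of effects between tumours, or a mean over days, joins differences from several sets, and levels in different sets were not tested against each other. Arrays of a group correlated at 0.984 or more across probe sets. Ptprc, the CD45 gene, read between 11.51 and 12.91 on every array. Melanocytic genes such as Dct, which leukocytes lack, averaged 5.53 to 10.78 over the 7 listed on B16 arrays and 3.72 to 4.04 on MC38 arrays. Nrp1 was lower on all Nrp1-deleted arrays than on all control arrays of the same tumour and day, with a mean difference of -0.84 ± 0.09 (adjusted p = 1.65e-07), although cells other than Treg express it and the probe set may lie outside the deleted part.

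Differences below are log2 values, Nrp1-deleted minus control unless stated otherwise, with the standard error after the ± sign. A gene passed when its adjusted p from limma, over all 17097 genes, was under 0.05. In bulk RNA of this kind, fewer cells of a type and less of an RNA in each cell cannot be told apart. Nor is it known which of the cells gave an RNA.

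Over the mean of the 6 combinations of tumour and day, 6 of the 9 measured genes fell in Nrp1-deleted hosts: Batf3, Xcr1, Itgae, Flt3, Zbtb46 and Wdfy4. Of all genes, 17.9% fell in that comparison and 11% rose. The median difference over the 9 genes was -0.78, against -0.03 over all genes. In B16 the same 6 genes fell and none rose, against 12.3% of all genes falling and 10.3% rising, with a median of -1.44 for the 9 genes against 0.01 for all genes. In MC38 1 of the 9, Batf3, fell (12.3% of all genes fell) and 1, Irf8, rose (6.97% of all genes rose), with a median of -0.13 against -0.06.

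**Figure D1:**
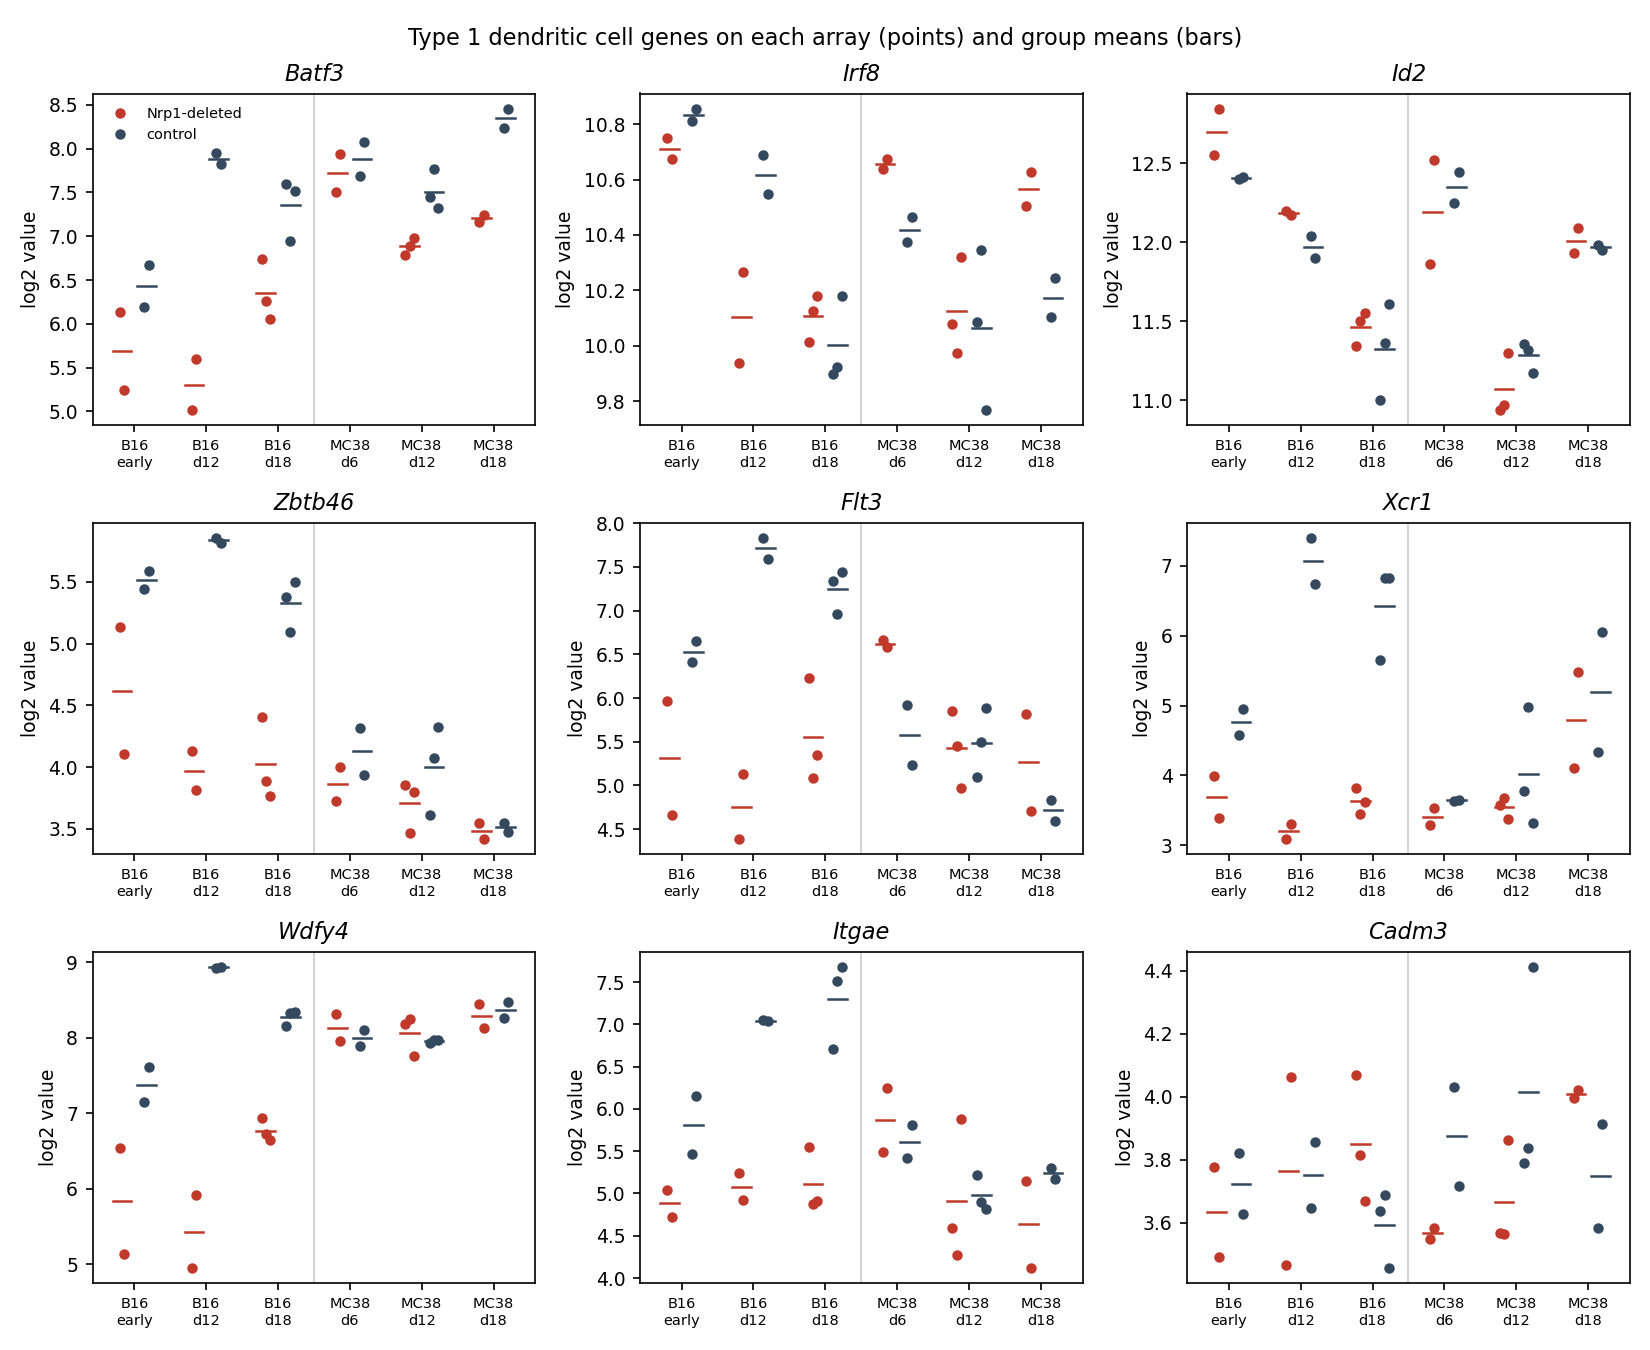
Log2 value of each measured gene on each array (points) with group means (bars), Nrp1-deleted in red to the left of control in dark blue, for the 3 days of B16 and of MC38. For Batf3, Xcr1, Wdfy4, Flt3, Itgae and Zbtb46 the Nrp1-deleted B16 groups lie below control without overlap at all 3 times. Of all genes, 22.9%, 24.1% and 15.8% do so at the early time, day 12 and day 18. For the same named genes most MC38 groups overlap. Values of different days can lie on different scales.

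The 120 bases before the listed transcription start are shown for 4 genes that fell together in B16, because they have little base composition in common. RefSeq sequences (GRCm38.p6) were found for 9 of the 10 genes. Capitals mark a match to the AP-1 letters TGANTCA, the kind of site that Batf3 dimers can bind.
Batf3, chr1:191098294-191098413, plus strand: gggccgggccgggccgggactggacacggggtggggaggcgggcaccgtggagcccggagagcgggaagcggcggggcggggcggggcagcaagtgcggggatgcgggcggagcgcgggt
Xcr1, chr9:123862030-123862149, minus strand: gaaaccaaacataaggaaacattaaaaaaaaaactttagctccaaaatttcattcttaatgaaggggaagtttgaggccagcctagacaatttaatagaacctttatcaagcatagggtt
Flt3, chr5:147400490-147400609, minus strand: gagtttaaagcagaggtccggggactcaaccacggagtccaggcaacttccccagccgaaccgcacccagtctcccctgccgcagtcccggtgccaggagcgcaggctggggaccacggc
Zbtb46, chr2:181424389-181424508, minus strand: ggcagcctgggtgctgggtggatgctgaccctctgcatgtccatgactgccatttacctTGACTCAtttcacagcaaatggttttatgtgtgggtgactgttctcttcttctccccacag

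Of these 120 bases, G and C made up 82.5% for Batf3, 67.5% for Flt3, 51.7% for Zbtb46 and 32.5% for Xcr1. The Zbtb46 start used by the table lies inside the gene as annotated (181371009 to 181493262 on chromosome 2). On the minus strand the outer start of the gene is at 181493262, so the Zbtb46 window is not the one before it. The windows of Wdfy4 and Cadm3, and the second of the Irf8 windows, also lie inside their genes as annotated. Whether transcription starts at any of these listed positions was not tested. Over the 250 bases before the start, on both strands, TGANTCA was found for Zbtb46 (61 to 55 bases before the start) and for Cadm3 (186 to 180 bases before it), against 6.75% of 32851 promoters. An interferon-response-like arrangement bound by IRF factors (GAAA, any 2 bases, GAAA) and a composite arrangement bound by Irf8 with an ETS partner (GGAA, any 2 bases, GAAA) were found in none of the 10 windows of the 9 genes. Their shares over all promoters were 2.98% and 2.3%. No match says only that these letters are not in these windows, and neither Batf3 nor Irf8 binding was measured.

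Among the transcription factors, Batf3, an AP-1 family factor that cDC1 need in order to develop, read 6.13 and 5.24 on early Nrp1-deleted B16 arrays against 6.19 and 6.67 on control arrays. Day 12 gave 5.02 and 5.59 on Nrp1-deleted arrays against 7.95 and 7.83 on control arrays. At day 18 Batf3 read 6.74, 6.26 and 6.05 on Nrp1-deleted arrays against 7.60, 6.95 and 7.52 on control arrays. The genotypes were apart at all 3 times, by the smallest margin at the early time and by the widest at day 12. The difference over B16 was -1.44 ± 0.15 (2.72-fold lower, adjusted p = 1.15e-07).

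In MC38, Batf3 read 7.51 and 7.94 on Nrp1-deleted arrays against 7.69 and 8.08 on control arrays at day 6, which overlap. By day 12 the gene read 6.79, 6.89 and 6.98 on Nrp1-deleted arrays against 7.45, 7.76 and 7.32 on control arrays. At day 18 the values were 7.17 and 7.25 on Nrp1-deleted arrays against 8.24 and 8.46 on control arrays. Batf3 was thus lower on every Nrp1-deleted array at days 12 and 18, and of the 9 genes it alone fell in both tumours. On the day 6 MC38 arrays Xcr1 read only 3.28 to 3.65, and which cells gave the Batf3 RNA was not tested. The MC38 difference was -0.64 ± 0.15 (1.56-fold lower, adjusted p = 0.00345), smaller than that of B16 by 0.80 ± 0.21 (adjusted p = 0.0109 for the difference of effects). At day 18 alone it was -1.14 ± 0.27 (adjusted p = 0.0158, with 2.24% of all genes lower), a call lost without any 1 of the 4 arrays there (adjusted p = 0.0686 to 0.146).

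Irf8, the factor on which cDC1 depend and which monocytes, macrophages and B cells also use, was among the brightest genes of each array and moved little. In B16 it read 10.75 and 10.67 on early Nrp1-deleted arrays against 10.81 and 10.86 on control arrays. At day 12 Irf8 read 9.94 and 10.27 on Nrp1-deleted arrays against 10.69 and 10.55 on control arrays, and at day 18 10.01, 10.13 and 10.18 against 9.90, 9.92 and 10.18. The groups were apart at the first 2 B16 times and overlapped at day 18. The B16 difference was -0.18 ± 0.08 and did not pass (adjusted p = 0.104). Day 12 alone did, at -0.52 ± 0.14 (adjusted p = 0.0111), but not without the first Nrp1-deleted or the first control array (adjusted p = 0.207 and 0.116).

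In MC38 Irf8 read 10.64 and 10.67 on Nrp1-deleted arrays against 10.37 and 10.47 on control arrays at day 6. Day 12 values were 10.08, 9.97 and 10.32 on Nrp1-deleted arrays against 10.08, 10.34 and 9.77 on control arrays. At day 18 Irf8 read 10.50 and 10.63 on Nrp1-deleted arrays against 10.10 and 10.24 on control arrays. It was higher on every Nrp1-deleted array at days 6 and 18, and at day 12 the groups overlapped. The MC38 rise was 0.23 ± 0.08 (1.17-fold higher, adjusted p = 0.0367), lost without any 1 of 8 arrays (adjusted p up to 0.108). The effects of the 2 tumours differed by -0.41 ± 0.11 (adjusted p = 0.0121). In a fit of all probe sets, a second one for Irf8 gave -0.13 in B16 (adjusted p = 0.244) and 0.33 in MC38 (adjusted p = 0.00128).

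Id2, which restrains E proteins in cDC1 and is also abundant in NK cells and activated T cells, stood at the 98.7th percentile or higher on every array, with values of 10.94 to 12.84. It read 12.20 and 12.18 on day 12 Nrp1-deleted B16 arrays against 12.04 and 11.90 on control arrays. Its B16 difference of 0.22 ± 0.09 and its MC38 difference of -0.11 ± 0.09 did not pass (adjusted p = 0.0986 and 0.477). The 95% intervals were 0.03 to 0.41 in B16 and -0.30 to 0.08 in MC38, so a change of either sign larger than 0.41 lies outside both.

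Zbtb46, a factor of conventional dendritic cells and their precursors, was dim. In B16 it read 5.13 and 4.10 on early Nrp1-deleted arrays against 5.44 and 5.59 on control arrays. Day 12 gave 4.13 and 3.81 on Nrp1-deleted arrays against 5.86 and 5.81 on control arrays. At day 18 Zbtb46 read 4.41, 3.89 and 3.77 on Nrp1-deleted arrays against 5.38, 5.10 and 5.50 on control arrays. All Nrp1-deleted B16 arrays lay below all control arrays of their day, and several came close to 3.64, the median of all values on all arrays. The B16 difference was -1.35 ± 0.16 (adjusted p = 5.09e-07), which may be a lower bound on the fall. In MC38 all values lay between 3.42 and 4.32 in both genotypes, and the difference of -0.20 did not pass (adjusted p = 0.44). In the fit of all probe sets, 1 of 3 dimmer ones fell in B16 (-0.52, adjusted p = 0.00221) and the other two, with means of 3.37 and 2.78, did not pass.

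Next come the receptors. Flt3, the receptor for Flt3 ligand, read 5.96 and 4.67 on early Nrp1-deleted B16 arrays against 6.41 and 6.65 on control arrays. At day 12 Flt3 read 4.39 and 5.13 on Nrp1-deleted arrays against 7.84 and 7.59 on control arrays. Day 18 gave 6.23, 5.08 and 5.35 on Nrp1-deleted arrays against 7.34, 6.96 and 7.44 on control arrays. The groups did not overlap at any B16 time. The B16 difference was -1.95 ± 0.23 (3.87-fold lower, adjusted p = 6.05e-07).

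In MC38 Flt3 had the opposite order at day 6, with 6.66 and 6.58 on Nrp1-deleted arrays against 5.92 and 5.24 on control arrays. Day 12 gave 5.85, 5.45 and 4.98 on Nrp1-deleted arrays against 5.09, 5.49 and 5.89 on control arrays. Day 18 gave 5.82 and 4.71 on Nrp1-deleted arrays against 4.84 and 4.59 on control arrays. The groups were apart at day 6 and overlapped at days 12 and 18. The MC38 difference of 0.51 ± 0.23 did not pass (adjusted p = 0.128), although without the second Nrp1-deleted day 18 array it did (0.69, adjusted p = 0.0445). Among the 9 genes, Flt3 showed the largest gap between the effects of B16 and MC38, -2.46 ± 0.32 (adjusted p = 1.43e-05).

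Xcr1, the receptor for the chemokine Xcl1 and a surface mark of cDC1, had the most negative difference of the 9 genes over B16 and at B16 days 12 and 18. In B16 it read 3.99 and 3.39 on early Nrp1-deleted arrays against 4.58 and 4.95 on control arrays. At day 12 Xcr1 read 3.09 and 3.30 on Nrp1-deleted arrays against 7.41 and 6.74 on control arrays, and at day 18 3.82, 3.45 and 3.61 against 5.65, 6.82 and 6.83. The day 12 Nrp1-deleted arrays placed it at the 29.0th to 36.1st percentile of probe sets, and the control arrays at the 75.4th to 80.9th. The B16 difference was -2.59 ± 0.28 (adjusted p = 2.06e-07). At day 12 it was -3.88 ± 0.51 (adjusted p = 4.33e-06) and at day 18 -2.81 ± 0.42 (adjusted p = 2.9e-05). All 7 Nrp1-deleted arrays read 3.09 to 3.99, around the median of all values (3.64), and RMA gives no detection call, so these differences may be lower bounds on the fall and no fold is given.

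In MC38 Xcr1 was dim in both genotypes at day 6, at 3.28 and 3.52 on Nrp1-deleted arrays against 3.64 and 3.65 on control arrays. Day 12 gave 3.58, 3.68 and 3.38 on Nrp1-deleted arrays against 3.77, 4.98 and 3.32 on control arrays. At day 18 Xcr1 read 4.11 and 5.48 on Nrp1-deleted arrays against 4.34 and 6.05 on control arrays. Outside day 6 the groups overlapped, and replicates of a day 18 group were over 1 log2 unit apart. The MC38 difference of -0.37 ± 0.28 did not pass (adjusted p = 0.408, 95% interval -0.95 to 0.20), and the effects of the 2 tumours differed by -2.22 ± 0.39 (adjusted p = 0.000382).

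Wdfy4 encodes a protein that cDC1 need for cross-presentation of cell-bound antigen. In B16 it read 6.54 and 5.13 on early Nrp1-deleted arrays against 7.14 and 7.61 on control arrays. At day 12 Wdfy4 read 4.95 and 5.91 on Nrp1-deleted arrays against 8.93 and 8.94 on control arrays, and at day 18 6.94, 6.73 and 6.64 against 8.16, 8.32 and 8.34. The groups were apart at all 3 times. The B16 difference was -2.18 ± 0.16 (4.54-fold lower, adjusted p = 2.34e-09), and at day 12 it was -3.50 ± 0.30 (11.3-fold lower, adjusted p = 1.21e-08). In MC38 Wdfy4 stayed between 7.75 and 8.47 on all 14 arrays, with a difference of 0.05 ± 0.16 (adjusted p = 0.879, 95% interval -0.29 to 0.39). Which cells gave the Wdfy4 RNA was not tested. The effects of the 2 tumours differed by -2.24 ± 0.23 (adjusted p = 2.53e-06).

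Itgae encodes CD103, an integrin of cDC1 outside lymphoid tissue that resident CD8+ T cells and Treg also carry. In B16 it read 5.04 and 4.72 on early Nrp1-deleted arrays against 5.47 and 6.15 on control arrays. At day 12 Itgae read 5.24 and 4.93 on Nrp1-deleted arrays against 7.05 and 7.04 on control arrays, and at day 18 5.55, 4.87 and 4.91 against 6.71, 7.52 and 7.68. The groups were apart at all 3 times. The B16 difference was -1.69 ± 0.23 (3.24-fold lower, adjusted p = 4.51e-06). Of 10 T cell genes, 7 rose in the same comparison, where 10.3% of all genes rose. Which cells gave the Itgae RNA was not tested. In MC38 Itgae read 5.49 and 6.25 on day 6 Nrp1-deleted arrays against 5.42 and 5.81 on control arrays. Day 12 gave 4.59, 4.27 and 5.88 on Nrp1-deleted arrays against 5.22, 4.90 and 4.82 on control arrays, and day 18 gave 5.15 and 4.12 against 5.30 and 5.18. The groups overlapped at days 6 and 12 and lay just apart at day 18. The MC38 difference of -0.14 ± 0.23 did not pass (adjusted p = 0.754).

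Cadm3, an adhesion gene reported in mouse cDC1 signatures, read 3.46 to 4.41 over all 28 arrays, around the median of all values. Its differences of 0.06 ± 0.12 in B16 and -0.13 ± 0.12 in MC38 did not pass (adjusted p = 0.807 and 0.528). RMA values carry no detection call, so for a gene at this level the arrays cannot show whether its RNA was present.

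**Figure D2:**
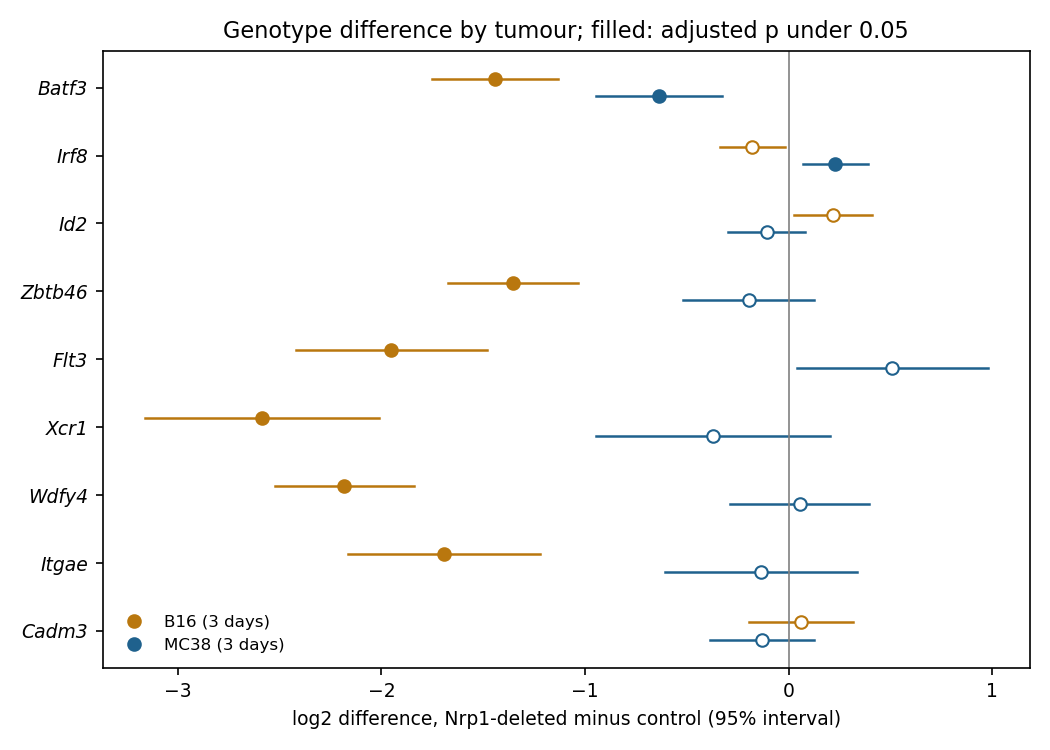
Genotype difference of each measured gene (log2, Nrp1-deleted minus control) over the 3 days of B16 (ochre) and of MC38 (blue), with 95% intervals; filled points passed at an adjusted p under 0.05. Xcr1, Wdfy4, Flt3, Itgae, Batf3 and Zbtb46 lie well below 0 in B16, and of these Batf3 alone lies wholly below 0 in MC38.

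The genotype effect differed between tumours for 7 of the 9 genes, in each case with the lower value in B16 (7.22% of all genes differed in that direction and 6.75% in the other). These were the 6 genes that fell in B16 and Irf8. The Itgae effects differed by -1.56 ± 0.32 (adjusted p = 0.00171) and those of Zbtb46 by -1.16 ± 0.22 (adjusted p = 0.000747). Id2 (0.33 ± 0.13, adjusted p = 0.103) and Cadm3 (0.19 ± 0.18, adjusted p = 0.534) did not pass, although Id2 did without the third control array of B16 day 18 (adjusted p = 0.0453) or the second Nrp1-deleted array of MC38 day 6 (adjusted p = 0.0115). The B16 and MC38 effects come partly from different scale sets.

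By single day, 1 of the 9 genes fell in early B16 tumours (Wdfy4, -1.54 ± 0.30, adjusted p = 0.0263, with 0.292% of all genes lower), 7 at day 12 (9.17% of all genes) and 6 at day 18 (11.3%). None of the 9 rose at any B16 time, where 0.152%, 7.8% and 7.54% of all genes rose. The early Wdfy4 call was lost without the second Nrp1-deleted array (adjusted p = 0.947) or either control array (adjusted p = 0.0625 and 0.462). In MC38 none of the 9 passed at day 6, where 1.99% of all genes fell and 0.983% rose, or at day 12, where 4.87% fell and 3.71% rose. Batf3 fell at day 18 and none of the 9 rose, against 2.24% of all genes falling and 3.12% rising. The sign was negative in all 6 combinations of tumour and day for Batf3, Xcr1 and Zbtb46, in 5 for Itgae, and in 4 for Flt3 and Wdfy4. It was negative in 3 for Cadm3 and in 2 for Irf8 and Id2. Shares of all genes with such sign counts are not given here.

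All Nrp1-deleted arrays lay below all control arrays for 7 of the 9 genes in early B16 tumours (22.9% of all genes), for 7 at day 12 (24.1%) and for 6 at day 18 (15.8%). In MC38 that held for 2 of the 9 at day 6 (25.9% of all genes), for 1 at day 12 (17.1%) and for 2 at day 18 (32.6%). The MC38 shares are near or below those of all genes. All Nrp1-deleted arrays lay above all control arrays for 1 gene, Id2, at the first 2 B16 times (21.2% and 31.6% of all genes) and for 0 at day 18 (13.6%). In MC38 that held for Irf8 and Flt3 at day 6 (16.2% of all genes), for 0 genes at day 12 (8.38%), and for Irf8 and Cadm3 at day 18 (19.7%).

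**Figure D3:**
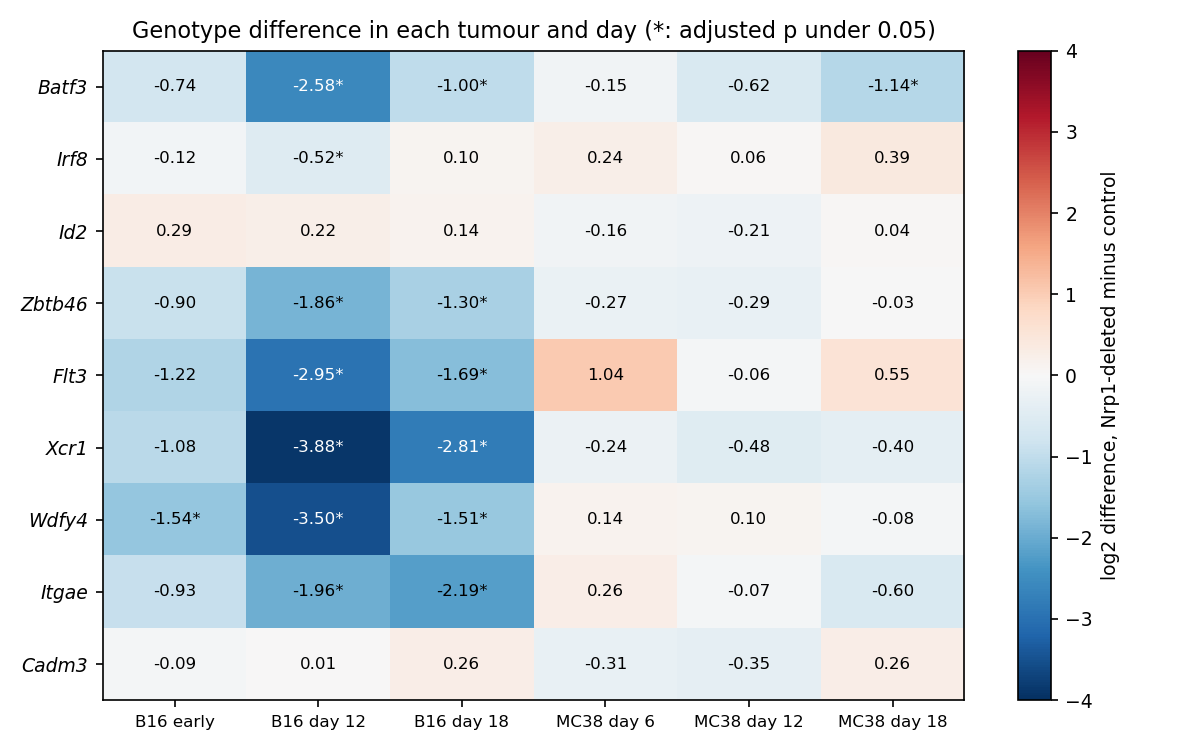
Genotype difference (log2, Nrp1-deleted minus control) of each measured gene in each tumour and day, in blue where negative and red where positive; asterisks mark an adjusted p under 0.05. The darkest cells are those of Xcr1 (-3.88) and Wdfy4 (-3.50) in B16 at day 12.

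Early and day 12 B16 arrays share a scale, so time could be tested there. In Nrp1-deleted hosts none of the 9 genes rose by day 12 (9.14% of all genes rose) and 2 fell (7.09%): Irf8 by 0.61 ± 0.14 (adjusted p = 0.00352) and Id2 by 0.51 ± 0.17 (adjusted p = 0.0416). The Irf8 call was lost without the first day 12 array (adjusted p = 0.1), and that of Id2 under 7 omissions of 1 array (adjusted p up to 0.322). In control hosts 4 of the 9 genes rose by day 12 (9.14% of all genes rose) and none fell (6.92%). Batf3 rose by 1.46 ± 0.27 (adjusted p = 0.00047), Xcr1 by 2.31 ± 0.51 (adjusted p = 0.00228), Wdfy4 by 1.55 ± 0.30 (adjusted p = 0.000687) and Itgae by 1.24 ± 0.42 (adjusted p = 0.0455). Itgae lost its call under 13 of the 28 omissions (adjusted p up to 0.35).

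Markers of other cells moved with time on the same arrays. In Nrp1-deleted hosts all 7 melanocytic genes fell by day 12 (median -1.96) and 3 of 9 macrophage genes fell (median -0.55). In control hosts all 9 macrophage genes rose (median 1.99), as did all 5 MHC class II genes (median 1.26), all 3 monocyte genes (median 1.16), 5 of 9 cDC2 genes (median 2.09) and 1 of 7 melanocytic genes (median 0.43). The median over all genes was 0.01 in Nrp1-deleted hosts and -0.0048 in control hosts. The part of these lists in the cDC1 values was not tested.

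Within that scale the group means of Batf3, Xcr1 and Wdfy4 ran, low to high, through both Nrp1-deleted groups, early control and day 12 control, and neither control group overlapped the group next to it. For Batf3 and Wdfy4 the 2 Nrp1-deleted groups overlapped each other. For Xcr1, early Nrp1-deleted arrays all read above day 12 Nrp1-deleted arrays. The difference between the genotype effects of day 12 and the early time, a contrast chosen after seeing the data, was -1.84 ± 0.39 for Batf3 (adjusted p = 0.00387), -2.80 ± 0.72 for Xcr1 (adjusted p = 0.0186) and -1.96 ± 0.43 for Wdfy4 (adjusted p = 0.00531), 3 of 9 genes against 4.41% of all genes in that direction and 1.88% in the other. The Xcr1 call was lost without the first array of any of the 4 groups (adjusted p = 0.0759 to 0.101), and the Wdfy4 call without the first Nrp1-deleted array of either time (adjusted p = 0.0593 at day 12 and 0.0507 at the early time). In MC38, day 18 against day 6 gave no call among the 9 genes in Nrp1-deleted or control hosts (0.749% of all genes fell and 1.19% rose in Nrp1-deleted hosts, and 4.54% fell and 4.4% rose in control hosts), with Xcr1 at 1.39 ± 0.51 in Nrp1-deleted hosts (adjusted p = 0.201) and 1.55 ± 0.51 in control hosts (adjusted p = 0.0607). None of the 9 genes differed there in its genotype effect between day 18 and day 6, again a contrast chosen after seeing the data (0.0175% of all genes were lower and 0.0643% higher).

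The lists that follow hold other genes of these cells and of their surroundings, and a count over a list does not set it apart from other lists. Of 12 other cDC1 genes, 8 fell in B16 and none rose (median -0.86 against 0.01 over all genes), and in MC38 2 fell and 1 rose (median -0.02 against -0.06). Tlr3, the endosomal sensor of double-stranded RNA, fell by 1.88 ± 0.13 in B16 (adjusted p = 1.4e-09) and by 0.44 ± 0.13 in MC38 (adjusted p = 0.0216). Septin3, a cytoskeletal GTPase, fell by 1.44 ± 0.12 in B16 (adjusted p = 4.71e-09) and did not pass in MC38 (-0.04, adjusted p = 0.865). Plpp1, a lipid phosphatase, fell by 1.09 in B16 (adjusted p = 8.63e-05) and by 0.78 in MC38 (adjusted p = 0.00397). The gene of this list that rose in MC38 was Ly75, by 0.54 (adjusted p = 0.0115). Its B16 difference of 0.24 did not pass (adjusted p = 0.303). Ly75 falls outside the rule for examples and was named after its value was seen.

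Among genes of cDC1 function, 8 of 11 for cross-presentation and T cell stimulation fell in B16 and 2 of 11 in MC38, and none rose in either. Il12b, a subunit of the cytokine interleukin-12, fell by 1.97 ± 0.23 in B16 (adjusted p = 6.56e-07) and by 0.82 ± 0.23 in MC38 (adjusted p = 0.0134). Cd70, a costimulatory ligand, fell by 1.91 ± 0.17 in B16 (adjusted p = 1.38e-08), with -0.05 in MC38 (adjusted p = 0.881). Tnfsf9, the ligand of the costimulatory receptor 4-1BB, fell by 1.06 in B16 (adjusted p = 4.37e-05) and by 0.49 in MC38 (adjusted p = 0.0466).

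Of 6 measured chemokines and growth factors that draw or sustain cDC1, 4 rose in B16 and none fell, and in MC38 1 rose and 1 fell. Flt3l, the ligand of Flt3, rose by 0.62 ± 0.12 in B16 (adjusted p = 0.000417) and by 0.46 ± 0.12 in MC38 (adjusted p = 0.00911), while its receptor fell in B16. Ccl5, a chemokine of T and NK cells, rose by 0.37 in B16 (adjusted p = 0.0212), and Ccl4 by 0.67 (adjusted p = 4.62e-05). Xcl1, the ligand of Xcr1, did not pass (-0.10 in B16, adjusted p = 0.742). This gene falls outside the rule for examples and was named after its value was seen.

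Of 8 other factors of dendritic cell development, 5 fell and 2 rose in B16, and 3 rose and none fell in MC38. Spi1, the gene of the myeloid factor PU.1, fell by 1.09 ± 0.12 in B16 (adjusted p = 1.84e-07) and Cebpa, a factor of myeloid progenitors, by 1.24 ± 0.19 (adjusted p = 2.94e-05), while neither passed in MC38 (adjusted p = 0.258 and 0.113). Ikzf1, the lymphoid and dendritic cell factor Ikaros, rose by 0.66 in B16 (adjusted p = 2.15e-07) and by 0.38 in MC38 (adjusted p = 5e-04).

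Genes of the other dendritic cells also fell in B16: 6 of 9 type 2 (cDC2) genes, 8 of 9 mature dendritic cell genes and 2 of 6 plasmacytoid dendritic cell genes, with none rising. In MC38 none, 1 and 1 of these fell, and 2 cDC2 genes rose. Mgl2, a lectin of cDC2 and macrophages, fell by 3.19 in B16 (adjusted p = 2.21e-07). Irf4, of the same cDC2 list, went the other way. Its B16 difference of 0.52 did not pass (adjusted p = 0.0956), and it rose by 1.49 in MC38 (adjusted p = 4.19e-05). Ccl22, a chemokine of mature dendritic cells, had a B16 difference of -2.73 ± 0.23 (adjusted p = 9.27e-09). Tcf4, the factor of plasmacytoid dendritic cells, fell by 0.72 ± 0.10 in B16 (adjusted p = 4.13e-06). Of 6 genes shared by conventional dendritic cells and other leukocytes, none fell in either tumour, 1 rose in B16 and 4 rose in MC38, among them Runx3 (0.30 in B16, adjusted p = 0.00182, and 0.25 in MC38, adjusted p = 0.009), which CD8+ T cells also use. All 5 MHC class II genes fell in B16 and none passed in MC38. H2-Ab1, a class II chain, fell by 1.66 ± 0.14 in B16 (adjusted p = 5.98e-09).

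Markers of other cells moved on the same arrays. All 9 macrophage genes fell in B16 (median -1.72) and none passed in MC38 (median -0.23). Their mean log2 level was 6.48 to 7.75 on early Nrp1-deleted B16 arrays against 7.70 to 7.80 on control arrays, 6.11 to 6.68 against 9.73 to 9.76 at day 12, and 7.70 to 8.07 against 8.91 to 9.77 at day 18. All 7 melanocytic genes fell in B16 (median -1.68), and none passed in MC38. Their mean log2 level was 7.51 to 8.42 on early Nrp1-deleted B16 arrays against 7.67 to 7.81 on control arrays, 5.53 to 6.54 against 8.07 to 8.10 at day 12, and 6.56 to 7.68 against 10.23 to 10.78 at day 18. So at day 12 and day 18, when 7 and 6 of the cDC1 genes fell, macrophage and melanocytic genes were lower as well. At the early time 0 of the 7 melanocytic and 0 of the 9 macrophage genes passed, where 0.292% of all genes fell and 0.152% rose. The early macrophage median was still -0.69, against -0.90 for the cDC1 genes, of which 1 passed. The part of the macrophage and melanocytic genes in the fall of the cDC1 genes was not tested.

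Of 10 T cell genes, 7 rose in B16 and all 10 in MC38, and of 5 NK cell genes, 2 rose in B16 and all 5 in MC38. The T cell genes averaged 11.16 to 11.28 on day 12 Nrp1-deleted B16 arrays against 10.14 to 10.29 on control arrays, and 8.58 to 9.24 on day 18 Nrp1-deleted MC38 arrays against 6.86 to 7.23 on control arrays. Ptprc rose by 0.20 in B16 (adjusted p = 0.00283) and by 0.30 in MC38 (adjusted p = 0.000118). None of 4 B cell genes passed in either tumour. Of 3 monocyte genes 1 fell in B16 and 2 rose in MC38, of 4 neutrophil genes 3 fell in B16 and none passed in MC38, and of 5 Treg genes Nrp1 alone, the deleted gene, fell in either tumour, while 2 others rose in MC38. Of 7 fibroblast genes 2 fell in each tumour, at mean levels of 2.94 to 5.26 on all arrays. The part of these shifts in the cDC1 values was not tested.

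**Figure D4:**
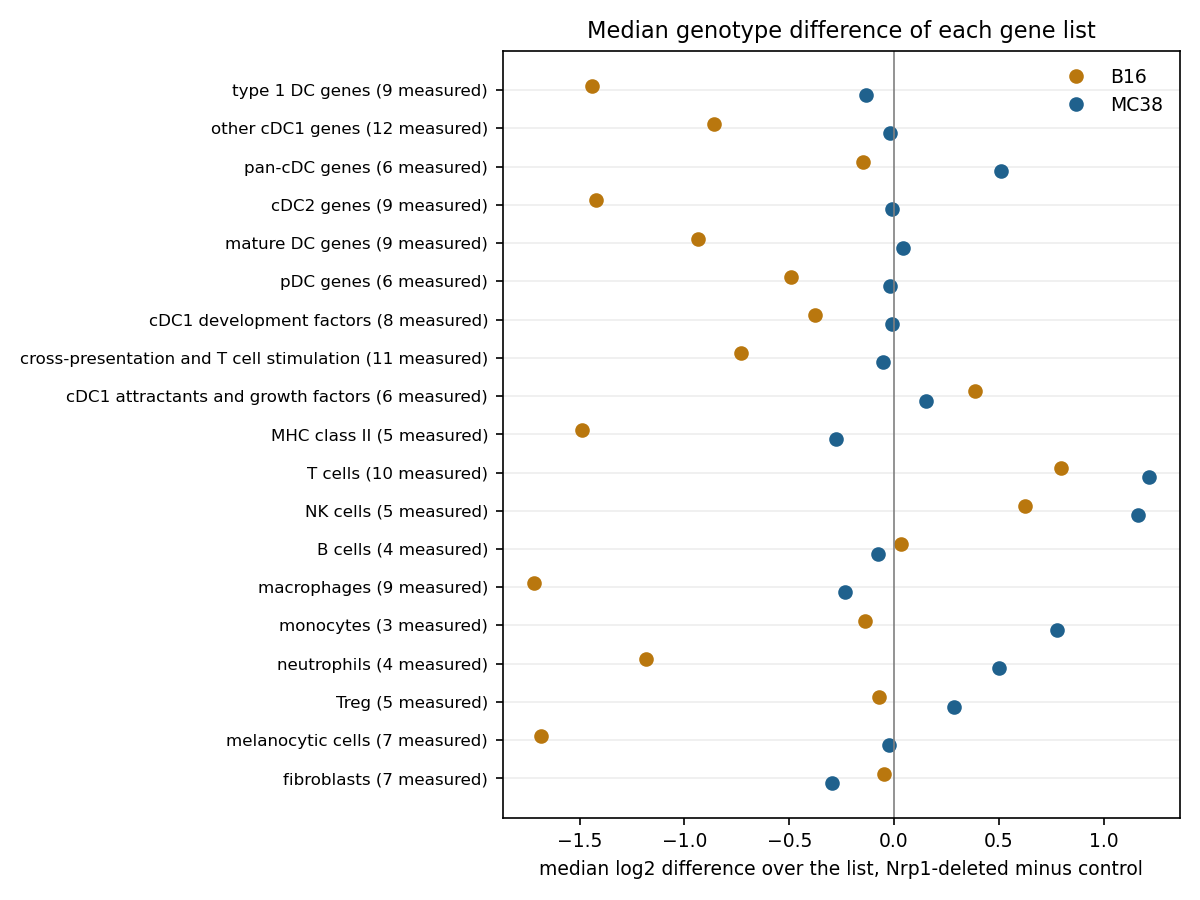
Median genotype difference (log2, Nrp1-deleted minus control) over the measured genes of each list, in B16 (ochre) and MC38 (blue). In B16 the cDC1 genes (-1.44) lie among the cDC2 (-1.42), MHC class II (-1.49), macrophage (-1.72) and melanocytic (-1.68) lists, and in MC38 all of these lie within 0.3 of 0.

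The 9 genes varied together to unequal degrees. Over the 28 arrays, after subtracting the mean of each tumour and day, Batf3 correlated with Wdfy4 at r = 0.863, with Zbtb46 at 0.843 and with Xcr1 at 0.832, but with Irf8 at 0.317 and with Id2 at -0.257. These points share the genotype difference. After the group means were subtracted, r for Batf3 was 0.598 with Wdfy4, 0.503 with Zbtb46 and 0.328 with Xcr1. The highest such value was that of Flt3 with Zbtb46, at 0.695.

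The genes whose pattern over the 28 arrays was most like that of a cDC1 gene, among genes brighter than the median of all values, were found for Batf3, Irf8 and Xcr1. For Batf3 they were Fgd2 (r = 0.949), Syngr2 (0.944), Aif1 (0.939), H2-DMa (0.937) and Cyp27a1 (0.937). For Irf8 they were Cd274 (0.836), Rnf19b (0.818), Hk3 (0.817), Itgb3 (0.805) and Upp1 (0.802). For Xcr1 they were Septin3 (0.91), Fmnl2 (0.906), Eif4ebp1 (0.902), H2-Ab1 (0.899) and Cpne2 (0.898). Of these, Aif1 is a macrophage gene, H2-DMa and H2-Ab1 belong to the MHC class II pathway, and Cd274 encodes the checkpoint ligand PD-L1. Within groups, r of Xcr1 with its 5 genes was 0.215 to 0.371, of Batf3 with its 5 genes 0.557 to 0.819, and of Irf8 with its 5 genes 0.677 to 0.767.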

How the data were processed

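Leukocytes were lysed directly after sorting, and their RNA was amplified in 2 cycles to biotin-labelled cRNA, per the labels' protocols; faint transcripts may be distorted by such amplification. The authors deposited log2 values that the submitters' processing notes credit to RMA and Partek 6.6. Arrays have no read depth, and their number limits the precision. Of 45141 probe sets, 28898 named 1 gene and 551 several. Each gene was represented by its brightest single-gene probe set, under symbols that can be old. With limma 3.58.1 (R 4.3.3), 12 group means were fitted over 28 arrays, using empirical Bayes with an intensity trend, no filter, 2-sided tests and Benjamini-Hochberg adjustment over all genes at 0.05. Intervals are 95%. The fit was tested on simulated data.

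The rule for named genes took all 10 cDC1 genes, up to 3 genes of each other list with the smallest adjusted p in the mean over the 6 combinations (some are left out here), and the 5 genes most correlated with Batf3, Irf8 and Xcr1. Of 141 genes in 19 other lists, 126 were measured. Members and lists were chosen with earlier results of these data known. Alternatives covered probe set choice, centring, cyclic loess, a filter on dim genes, the variance trend, array weights, the groups fitted, a replicate block and omission of each array or of the B16 day 18 arrays.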

Additional observations from a re-analysis of the deposited data

Results flagged for a closer look

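The genotype effect differed between the tumours, by a test of the difference itself, for 7 of the 9 measured genes. Of all genes, 7.22% had a lower effect in B16 than in MC38 by that test and 6.75% a higher one. The B16 effect minus the MC38 effect (log2) was -0.80 for Batf3, -0.41 for Irf8, -2.22 for Xcr1, -1.56 for Itgae, -2.46 for Flt3, -1.16 for Zbtb46 and -2.24 for Wdfy4.

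In a contrast chosen after seeing the data, the genotype effect differed between B16 times on a shared scale for 3 of the 9 genes. Of all genes, 4.41% were lower in it and 1.88% higher. The day 12 effect minus the early effect was -1.84 for Batf3, -2.80 for Xcr1 and -1.96 for Wdfy4. The calls of Xcr1 and Wdfy4 were lost without some single arrays, as given above. In the same contrast all 7 melanocytic genes (median -2.29) and all 9 macrophage genes (median -2.57) were lower. Their part was not tested.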

How the results depend on the processing

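The number of cDC1 genes called stayed within 1.5 times of the reported count, under each alternative run, for the mean over the 6 combinations, for B16, for B16 at days 12 and 18 and for the difference between the tumours. The MC38 count of 2 became 1 with 75th percentile centring, no variance trend, the compared groups only or the replicate block. In these 4 settings Irf8 lost its call (adjusted p = 0.0583 to 0.0828). The count of 1 in early B16 tumours became 0 with no variance trend, the compared groups only or the replicate block. With the compared groups only, the count became 1 in MC38 at day 12 (none reported), 2 in MC38 at day 18 (1 reported), 7 for time in B16 control hosts (4 reported) and 6 for time in MC38 control hosts (none reported). Array weights gave 2 in MC38 at day 18 and 1 for time in MC38 control hosts, where the filter on dim genes gave 1 and the replicate block 2. For time in Nrp1-deleted B16 hosts the count of 2 became 1 with the mean over probe sets, cyclic loess or no variance trend. The shares of all genes called under these alternatives are not given here, so these counts do not set the cDC1 genes apart from other genes. The cause of these shifts was not tested. Cadm3 in B16 turned to -0.039 without the day 18 arrays.

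Leaving out 1 array at a time, the counts ranged over 1 to 2 in MC38, 0 to 4 in early B16 tumours, 0 to 1 in MC38 at day 18, 0 to 1 for time in MC38 control hosts, 0 to 3 for time in Nrp1-deleted B16 hosts, 3 to 5 for time in B16 control hosts and 1 to 5 for the B16 day 12 effect minus the early effect. Shares of all genes are not given for these counts either. Differences that changed sign were all near 0. Over the mean they ranged over -0.0021 to 0.053 for Irf8, -0.00039 to 0.11 for Id2 and -0.086 to 0.014 for Cadm3. In B16 Cadm3 ranged over -0.040 to 0.16. In MC38 the ranges were -0.31 to 0.035 for Itgae, -0.0050 to 0.11 for Wdfy4 and -0.22 to 0.0013 for Id2.

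Some calls appeared only under an alternative. Irf8 in B16 passed with array weights (adjusted p = 0.0416) and without the day 18 arrays (-0.32, adjusted p = 0.0375). It also passed without the second Nrp1-deleted day 12 array (-0.23), a fit that leaves 1 array in that group. Id2 in B16 passed with the replicate block (adjusted p = 0.0447) and under 3 omissions of 1 array (adjusted p = 0.0327 to 0.0432). Over 14 same-numbered pairs the correlation of deviations from group means was -0.276 to 0.196, above 0.1 in 2 and below -0.1 in 5. Where groups held 2 arrays, both pairs give the same value by construction. Whether replicate numbers pair the arrays could thus not be settled. Centring on the 75th percentile moved the median difference of all genes to 0.11 for B16 minus MC38, -0.12 for MC38 day 12 and -0.11 for MC38 day 18. With 2 or 3 arrays in a group, and without a detection call, small changes of dim genes such as Cadm3 could not be resolved.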
